A study of Mus musculus with 59 samples.

Results

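Cortex of male mice labelled heterozygous for both Slc25a1 and Mrpl40 (double het) was compared with cortex of male mice labelled wild type for both genes. The 7 double het libraries (written Mrpl40 -/+,Slc25a1 -/+) and the 9 wild-type libraries (Mrpl40 +/+,Slc25a1 +/+) were chosen by the genotype in their titles and make up 16 of the 59 poly(A) RNA libraries of the series. The other libraries are cortex of single heterozygotes, 7 labelled Slc25a1 het and 7 labelled Mrpl40 het, and hippocampus of the same 4 genotypes. The sources used here do not give strain, age, litter or the kind of mutation of either allele. Each library of a tissue comes from an animal with its own number, so that the spread within a group is a spread between animals.

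Slc25a1 is the citrate carrier of the inner mitochondrial membrane. It moves citrate from the matrix to the cytosol, where citrate is split to acetyl-CoA for the synthesis of fatty acids and cholesterol and for acetylation. Mrpl40 belongs to the mitochondrial ribosome (large subunit), which translates the few respiratory chain subunits that the mitochondrial genome encodes. Both genes lie in the mouse region that matches the human 22q11.2 deletion, and in cortex both products serve energy metabolism in neurons and in glia.

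Total counts ranged from 22100013 to 31854093 in the 16 libraries. The dissected tissue carried its markers: Cux2, a gene of upper-layer cortical neurons, lay between 184 and 311 CPM (counts scaled to a common library size) in these libraries against 19.5 to 63.0 CPM in all hippocampus libraries, and Prox1, a dentate gyrus gene, between 10.6 and 14.9 CPM against 136 to 319 CPM. The level of Slc25a1 went against the label in 4 of the 16 animals. It was 21.6 and 20.8 CPM in double het replicates 5 and 6, against 10.6 to 12.0 CPM in the other double het libraries, and 12.6 and 12.0 CPM in wild-type replicates 6 and 7, against 23.0 to 26.1 CPM in the other wild-type libraries. The same held for 2 of the 7 Slc25a1 het libraries, replicates 3 and 4, at 21.5 and 24.0 CPM. Groups are therefore named as labelled throughout. Values given without the 6 libraries come from a joint fit of the 4 genotypes that leaves out all of these, with 7 wild-type and 5 double het libraries left. Between the labelled groups Slc25a1 differed by a log2 fold change of -0.61 ± 0.20 (SE; edgeR adjusted p 0.247), and Mrpl40 by -0.038 ± 0.061 (adjusted p 0.869), with 15.0 to 19.2 CPM in double het and 15.9 to 20.4 CPM in wild type.

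Between the labelled groups 14 of 20394 tested genes passed at an adjusted p of 0.05 (edgeR quasi-likelihood test, Benjamini-Hochberg adjustment; 0.0686% of genes), 4 higher (0.0196%) and 10 lower (0.0490%) in double het. The calls were small in size, between -0.44 and 0.24 on the log2 scale. They fall into a few kinds of gene: sequences of the cytosolic ribosome (Gm10263, Gm10335, Rps15 and Rps2, all lower), copies of mitochondrial genes (Gm10222, Gm10925 and Gm28439, all higher), glial genes (C1qa, Slc38a3 and Mt3, all lower), and Dapk3, Zfp467, the processed pseudogene Gm7331 (lower) and Reps2 (higher). At an unadjusted p under 0.05 there were 2226 genes (10.9%), 1008 higher (4.94%) and 1218 lower (5.97%), and 51.4% of all genes lay below 0, with a median log2 fold change of -0.0034. In 6 of the 14 called genes no double het library overlapped a wild-type library, a separation seen in 26 of all tested genes (0.127%), 19 lower (0.0932%) and 7 higher (0.0343%).

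**Figure D1:**
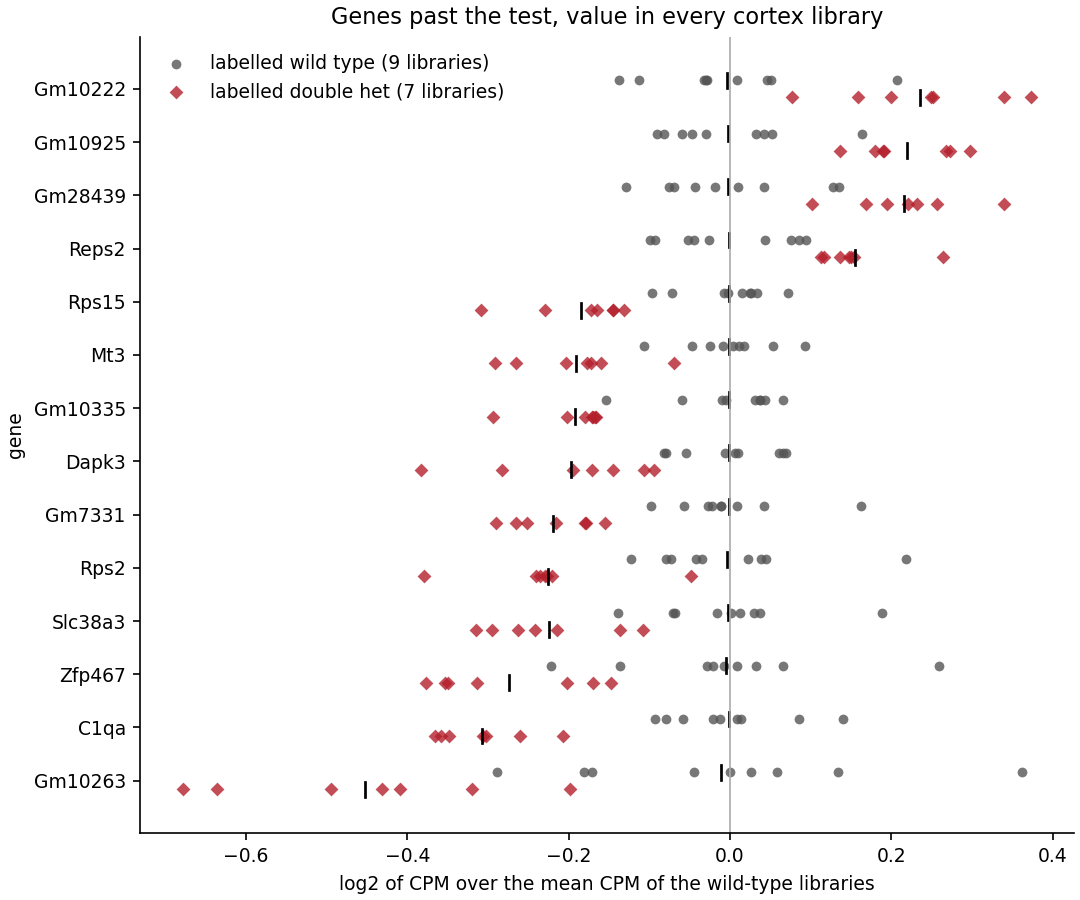
Each point is 1 cortex library, as log2 of its CPM over the mean CPM of the 9 wild-type libraries (circles: labelled wild type; diamonds: labelled double het; black bars: group means on this scale), for the 14 genes past the test. Diamonds and circles are apart for Gm7331, Gm10335, C1qa, Dapk3, Rps15 and Reps2 and overlap for the other 8 genes.

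The predicted genes among the calls are printed first, because their sequence decides what was measured. A comparison of their transcripts with all annotated transcripts (blastn, GENCODE vM21, build GRCm38, which is not the build named in the submitters' processing notes) matched 5 of them to a known gene as follows. Gm10263 (ENSMUSG00000066407, a processed pseudogene on chromosome 13) is a copy of Rps28, a gene of the small ribosomal subunit, and differs from its 210 coding bases at 1 base, G163A, counted from the first coding base of the known gene, whose base is written first. Gm10335 (ENSMUSG00000071532, a processed pseudogene on chromosome 10) is a copy of Rpl23a of the large subunit and differs from its 468 coding bases at 1 base, C248T. Over all 300 bases of its transcript Gm10263 matched Rps28 at 99.0% identity, so it also differs outside these coding bases. The 61 bases around each coding difference show how little coding sequence tells a copy from its source, with the differing base in capitals.
Gm10263: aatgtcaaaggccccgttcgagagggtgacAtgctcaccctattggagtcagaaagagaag
Rps28: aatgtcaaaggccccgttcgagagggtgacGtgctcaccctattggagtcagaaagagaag
Gm10335: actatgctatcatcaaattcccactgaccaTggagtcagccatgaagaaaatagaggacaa
Rpl23a: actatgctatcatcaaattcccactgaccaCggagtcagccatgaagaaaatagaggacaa

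The 3 predicted genes that were higher are unprocessed pseudogenes on chromosome 1 whose whole transcripts are identical to genes of the mitochondrial genome. Gm10222 (ENSMUSG00000067736) matched mt-Nd4l, a subunit of complex I, over all of its 294 bases, Gm28439 (ENSMUSG00000100131) matched mt-Nd4 of complex I over 876 bases, and Gm10925 (ENSMUSG00000100862) matched mt-Atp6 of the ATP synthase over 678 bases. The shortest of them is shown whole, since not 1 of its bases separates it from the mitochondrial gene.
Gm10222: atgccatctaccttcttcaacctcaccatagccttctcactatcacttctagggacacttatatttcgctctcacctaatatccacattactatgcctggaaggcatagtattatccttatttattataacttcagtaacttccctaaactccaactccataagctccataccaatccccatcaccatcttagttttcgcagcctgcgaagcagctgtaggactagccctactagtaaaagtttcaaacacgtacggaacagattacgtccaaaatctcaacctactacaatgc
The counts of the mitochondrial genes themselves are 0 in every library of the table. The ribosomal copies belong to larger families. By the same comparison Gm10263 shares sequence with 9 other annotated genes, Rps28 among them, and Gm10335 with 33, Rpl23a among them. From which member of such a family, or of a mitochondrial pair, the reads came cannot be told apart in these counts.

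Counts on 4 ribosomal sequences fell in double het. Gm10335 ranged from 35.4 to 41.2 CPM (median 40.2) in wild type and from 32.1 to 35.1 CPM (median 35.0) in double het (-0.19 ± 0.037, log2 fold change and SE; edgeR adjusted p 0.0224), without overlap. Gm10263, the least counted of the 14 with 93 to 190 counts per library, went from 4.83 to 7.59 CPM (median 5.90) to 3.69 to 5.14 CPM (median 4.38), a difference of -0.44 ± 0.085 (adjusted p 0.0224), and 1 double het library lay inside the wild-type range. The matched genes themselves did not pass: Rpl23a was at -0.10 ± 0.055 (edgeR adjusted p 0.515) and Rps28 at -0.12 ± 0.14 (0.814).

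Of the protein-coding ribosomal genes, 2 passed. Rps15 (ENSMUSG00000063457), a protein of the small subunit, ranged from 187 to 210 CPM (median 202) in wild type and from 162 to 183 CPM (median 179) in double het, with no overlap (-0.18 ± 0.037, edgeR adjusted p 0.0318). Rps2 (ENSMUSG00000044533), which lies near the entry of the messenger RNA into the small subunit, ranged from 138 to 175 CPM (median 147) and from 116 to 146 CPM (median 128), with 6 of 7 double het libraries below every wild-type library (-0.22 ± 0.047, adjusted p 0.0401). Both share sequence with other annotated genes, Rps2 with 49 and Rps15 with 5 at 90% identity or more over at least 50% of the transcript, so that the split of their reads is uncertain as well.

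Across the 80 listed genes of the cytosolic ribosome, 73 lay below wild type against 51.4% of all genes, with a median of -0.074 against -0.0034. At an unadjusted p under 0.05, 24 were lower (5.97% of all genes were) and 1, Rpl15 at 0.072 ± 0.034, was higher. Below the threshold of the test lay Rpl18 (-0.19 ± 0.042, edgeR adjusted p 0.0599), Rpl30 (-0.21 ± 0.047, 0.0599) and the pseudogene Rps24-ps3 (-0.20 ± 0.044, 0.0599). The mean log2 CPM of the list overlapped between the groups, at 5.10 to 5.27 in wild type and 4.97 to 5.20 in double het, and the lowest library was double het replicate 5. Without the 6 libraries whose Slc25a1 level goes against the label, 63 of 80 lay below and the median was -0.046.

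Gm10925 ranged from 2180 to 2599 CPM (median 2272) in wild type and from 2549 to 2851 CPM (median 2649) in double het, a log2 fold change of 0.22 ± 0.041 (SE; edgeR adjusted p 0.0224). Gm28439 ranged from 798 to 958 CPM (median 861) and from 935 to 1103 CPM (median 1016), a change of 0.22 ± 0.041 (adjusted p 0.0224). Gm10222 ranged from 180 to 229 CPM (median 194) and from 209 to 257 CPM (median 236), a change of 0.24 ± 0.046 (adjusted p 0.0224). In each of the 3 the highest wild-type library reached into the double het range: 6 of 7 double het libraries lay above every wild-type library for Gm10925 and Gm28439, and 4 of 7 for Gm10222. Among the 10 tested members of the list of such copies, all lay above wild type with a median of 0.22, and 9 had an unadjusted p under 0.05 (4.94% of all genes did in that direction). The list was put together with these calls known. It includes Gm13340 at 0.26 ± 0.058 (adjusted p 0.0638), which did not pass here but did with length and GC content trends removed.

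Genes of microglia and astrocytes, the immune and the supporting glia of the brain, lay mostly below wild type. C1qa (ENSMUSG00000036887), a chain of the complement protein C1q that microglia make, ranged from 28.1 to 33.1 CPM (median 29.7) in wild type and from 23.3 to 26.0 CPM (median 24.3) in double het. Every double het library lay below every wild-type library, and the log2 fold change was -0.31 ± 0.060 (SE; edgeR adjusted p 0.0262). Of the 17 tested microglia genes 16 lay below wild type (median -0.12), 9 of them at an unadjusted p under 0.05 (5.97% of all genes). The other chains of the same protein, C1qb and C1qc, stood at -0.20 ± 0.063 and -0.19 ± 0.063, the growth factor receptor Csf1r at -0.13 ± 0.045, and Trem2, a lipid-sensing receptor, at -0.15 ± 0.062. These did not pass, nor did Tmem119 (-0.11 ± 0.075), P2ry12 (-0.12 ± 0.055) and Cx3cr1 (-0.052 ± 0.049), which mark resting microglia. In bulk tissue, fewer cells of a type and less RNA per cell cannot be told apart. Selplg, an adhesion ligand found on microglia in brain, had no overlap between groups (23.1 to 28.9 CPM against 18.8 to 22.3 CPM) and an adjusted p of 0.0599. The summed level of the microglia list ranged from 487 to 591 CPM in wild type and from 455 to 521 CPM in double het.

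Slc38a3 (ENSMUSG00000010064), the transporter by which astrocytes release glutamine for the refilling of transmitter pools in neurons, ranged from 62.7 to 78.7 CPM (median 69.1) in wild type and from 55.5 to 64.0 CPM (median 58.4) in double het. It fell by 0.22 on the log2 scale (SE 0.044, edgeR adjusted p 0.0262), and the overlap came from wild-type replicate 1, the only wild-type library inside the double het range. The other members of the glutamine and glutamate cycle did not pass. The neuronal glutamine importer Slc38a1 stood at 0.11 ± 0.038 and the neuronal glutamate transporter Slc1a1 at 0.13 ± 0.046, both above wild type. The astrocytic members lay below it, with the glutamate transporter Slc1a3 at -0.10 ± 0.050 and glutamine synthetase, Glul, at -0.081 ± 0.044. Over the 17 tested members 9 lay above and 8 below, with a median of 0.014.

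Mt3 (ENSMUSG00000031760), the brain member of the metallothioneins, which bind zinc and copper, ranged from 135 to 155 CPM (median 146) in wild type and from 119 to 139 CPM (median 129) in double het. It fell by 0.19 on the log2 scale (SE 0.035, edgeR adjusted p 0.0224), and only double het replicate 3, at 139 CPM, reached into the wild-type range. The widely expressed members Mt1 (-0.15 ± 0.079, adjusted p 0.518) and Mt2 (-0.39 ± 0.20, adjusted p 0.493) did not pass.

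All 16 astrocyte markers lay below wild type (median -0.10), 6 of them at an unadjusted p under 0.05 (5.97% of all genes), and 0 passed. The amino acid transporter Slc7a10 came nearest (22.3 to 30.1 CPM in wild type, 20.1 to 25.7 CPM in double het; -0.27 ± 0.058, edgeR adjusted p 0.0512). Apoe, the main lipid carrier of brain that astrocytes and microglia secrete, ranged from 998 to 1227 CPM and from 770 to 1010 CPM (-0.25 ± 0.055, adjusted p 0.0599). Without the 6 libraries, 14 of 16 astrocyte markers and 17 of 17 microglia genes lay below, with medians of -0.091 and -0.100. Oligodendrocyte markers stood on the other side, 15 of 15 above wild type (median 0.17), with 0 at an unadjusted p under 0.05, and their median was 0.080 without the 6 libraries. Blood vessel markers lay below in 14 of 16 (median -0.052) and oligodendrocyte precursor markers in 8 of 10 (median -0.024).

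**Figure D2:**
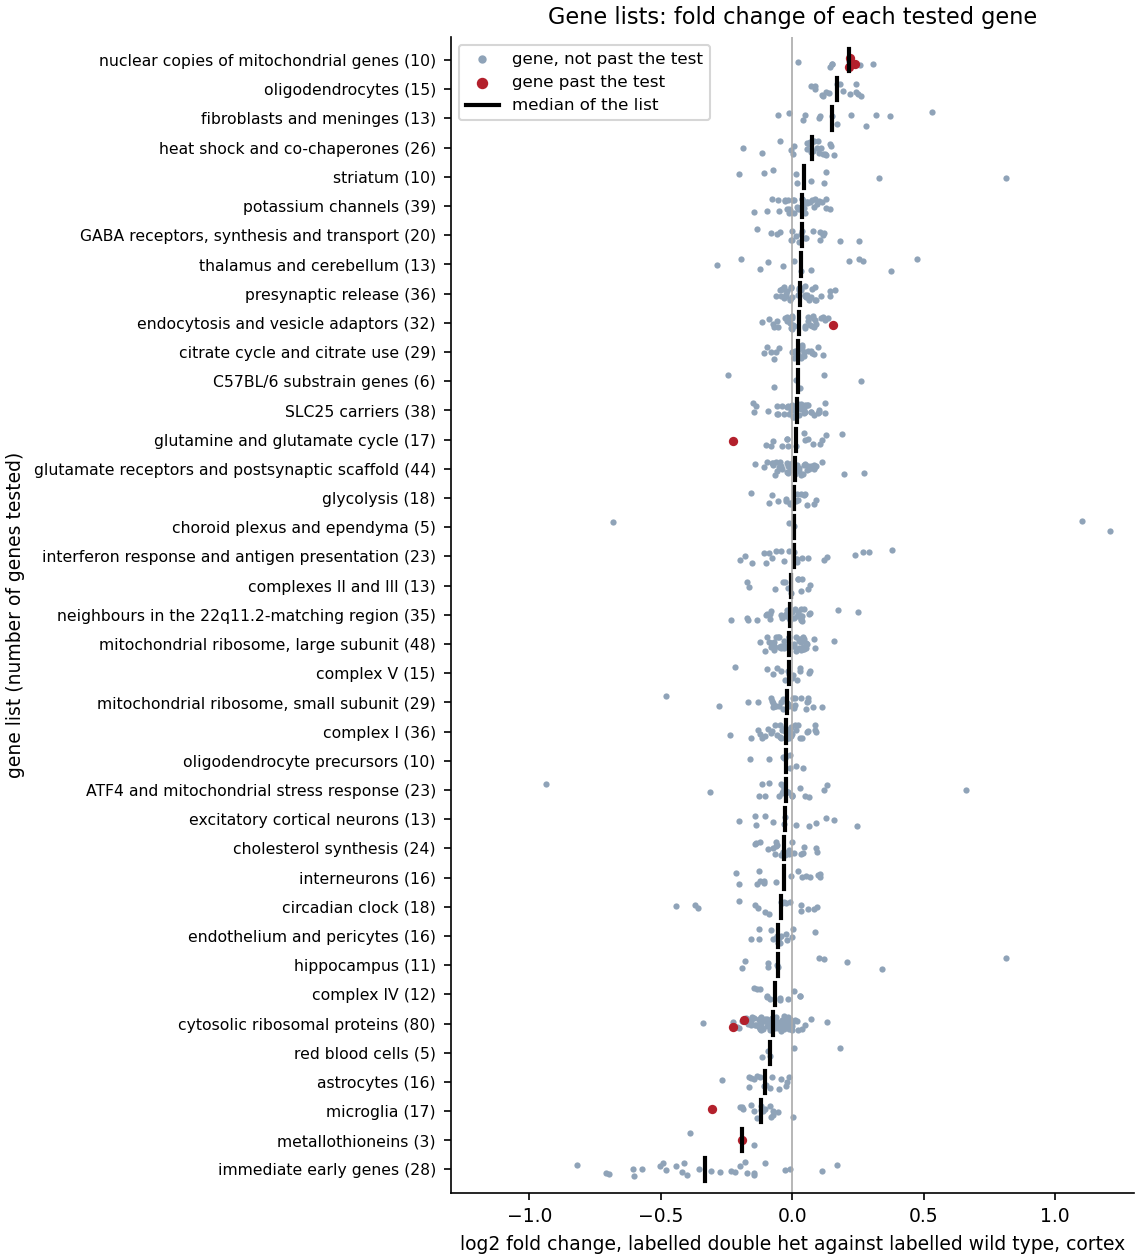
Each point is the log2 fold change of 1 gene between cortex labelled double het and cortex labelled wild type, and each row is 1 of 39 gene lists with the number of genes tested, ordered by the median (black bar; red: genes past the test). Immediate early genes have the lowest median at -0.33, the nuclear copies of mitochondrial genes the highest at 0.22.

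Reps2 (ENSMUSG00000040855), which binds the endocytic adaptors of the EPS15 family, was the only called gene higher in double het besides the mitochondrial copies. It ranged from 166 to 189 CPM (median 174) in wild type and from 192 to 213 CPM (median 197) in double het, with no overlap (0.16 ± 0.033, edgeR adjusted p 0.0457). Of the 32 tested genes of endocytosis, 21 lay above wild type (median 0.026), 10 of them at an unadjusted p under 0.05. At that level 2 were lower. Over all genes 4.94% were higher and 5.97% lower. Clathrin heavy chain, Cltc, stood at 0.13 ± 0.038, the phosphatase Synj1, which uncoats vesicles, at 0.12 ± 0.035 and Eps15 itself at 0.13 ± 0.045, while its relative Eps15l1 stood at -0.088 ± 0.033. Without the 6 libraries the list split evenly, 16 above and 16 below, with Reps2 at 0.16 ± 0.039.

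Dapk3 (ENSMUSG00000034974), a kinase of the death-associated family that phosphorylates myosin, ranged from 30.0 to 33.3 CPM (median 31.9) in wild type and from 24.3 to 29.7 CPM (median 28.2) in double het, with no overlap (-0.19 ± 0.039, edgeR adjusted p 0.0278). Zfp467 (ENSMUSG00000068551), a zinc finger gene, ranged from 17.6 to 24.5 CPM (median 20.4) and from 15.8 to 18.5 CPM (median 16.5), with 4 of 7 double het libraries below every wild-type library (-0.27 ± 0.056, adjusted p 0.0401). Both fell. Gm7331 (ENSMUSG00000059461), a processed pseudogene on chromosome X, ranged from 43.7 to 52.3 CPM (median 46.4) in wild type and from 38.2 to 42.0 CPM (median 40.3) in double het and differed by -0.22 ± 0.035 (log2 fold change and SE; edgeR adjusted p 0.00573). The groups did not overlap, and its sequence is shared with 9 other annotated genes, so that the split of its reads is uncertain. Among the genes just outside the threshold, 2 were higher: Emb, an immunoglobulin-family partner of monocarboxylate transporters, at 0.26 ± 0.058 (adjusted p 0.0599), and Atp8a1, a flippase that keeps phosphatidylserine on the inner membrane leaflet, at 0.13 ± 0.030 (0.0599).

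The pathways of the targeted genes held 0 genes that passed by edgeR. At an unadjusted p under 0.05 there were 1 higher and 2 lower genes of the large and 4 lower genes of the small mitochondrial ribosomal subunit. The citrate list held 3 higher and 1 lower at that level, the SLC25 carriers 1 higher and 3 lower, and cholesterol synthesis 2 lower. Over all genes 4.94% were higher and 5.97% lower. Of the 48 tested genes of the large mitochondrial ribosomal subunit besides Mrpl40, 26 lay below wild type (median -0.011), with Mrpl4 at -0.095 ± 0.033 and Mrpl43 at 0.16 ± 0.061. Of the 29 of the small subunit 17 lay below (median -0.021). Mrps26 of that subunit had no overlap between groups (38.5 to 43.9 CPM in wild type, 35.2 to 37.4 CPM in double het) and an edgeR adjusted p of 0.0544 at -0.17 ± 0.036, and it passed with length and GC content trends removed (-0.19 ± 0.038, adjusted p 0.0298). Citrate cycle and citrate use genes lay above in 22 of 29 (median 0.024), among them Dld, a shared subunit of the pyruvate and oxoglutarate dehydrogenases, at 0.12 ± 0.038 and Acly, which splits the exported citrate, at 0.075 ± 0.035, whereas Idh2 stood at -0.11 ± 0.050. In the fit without the 6 libraries 16 of 29 lay above. The other mitochondrial carriers of the SLC25 family lay above in 24 of 38 (median 0.019), and cholesterol synthesis genes below in 17 of 24 (median -0.029; Lss at -0.14 ± 0.054).

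Of the respiratory chain genes encoded in the nucleus, those of complexes I and IV lay mostly a little below. In complex I 26 of 36 were below (median -0.024), with Ndufb7 at -0.13 ± 0.034 (edgeR adjusted p 0.115) and Ndufa9 at 0.093 ± 0.037. At an unadjusted p under 0.05, 6 genes of complex I were lower (5.97% of all genes) and 2 higher (4.94%). In complex IV 9 of 12 were below (median -0.067), 5 of them at an unadjusted p under 0.05 (5.97% of all genes). Cox6b1 stood at -0.13 ± 0.032 (113 to 127 CPM against 124 to 139 CPM in wild type, edgeR adjusted p 0.0779). In complexes II and III 6 genes lay above and 7 below (median -0.0028). Uqcrq, a small subunit of complex III, was at -0.17 ± 0.038 (adjusted p 0.0599), and Sdha of complex II at 0.069 ± 0.030. With gene length and GC content trends removed the complex I median turned to 0.0088 and that of complex IV went to -0.021. Of 35 tested neighbours in the 22q11.2-matching region 19 lay below (median -0.0082), with Dgcr6 at -0.17 ± 0.048 (adjusted p 0.129), the proline dehydrogenase gene Prodh at -0.17 ± 0.056 and Klhl22 at 0.069 ± 0.032.

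Immediate early genes, which neurons switch on within minutes of activity, had the lowest median of any list at -0.33. Below wild type lay 26 of 28, 4 of them at an unadjusted p under 0.05 (5.97% of all genes) and 0 past the test. They vary widely between animals. The mean log2 CPM of the list ranged from 4.92 to 6.37 in wild type, where replicate 3 was the lowest and the next library stood at 5.88, and from 5.00 to 6.18 in double het, so that the groups overlapped. Jund stood at -0.17 ± 0.067, Junb at -0.70 ± 0.33 and Egr4 at -0.60 ± 0.29, while Homer1 stood at 0.17 ± 0.15. Circadian clock genes lay below in 13 of 18 (median -0.041), 5 of them at an unadjusted p under 0.05 (5.97% of all genes). At that level 2 were higher (4.94% of all genes), and 0 passed. The clock output gene Dbp stood at -0.36 ± 0.11, Ciart at -0.37 ± 0.12 and Clock at 0.085 ± 0.034. With length and GC content trends removed 15 of 18 lay below.

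Heat shock genes and co-chaperones lay above wild type in 22 of 26 (median 0.075). At an unadjusted p under 0.05 were 8 of them (4.94% of all genes were higher), and 0 passed the test. Hspa4, which releases nucleotide from the main heat shock proteins, ranged from 248 to 305 CPM in wild type and from 277 to 313 CPM in double het (0.14 ± 0.042, edgeR adjusted p 0.168), and Hsp90b1 of the endoplasmic reticulum stood at 0.11 ± 0.039. The median was 0.048 without the 6 libraries. Stress genes driven by ATF4 lay below in 17 of 23 (median -0.025; 9 of 23 and a median of 0.028 without the 6 libraries), with Nupr1 at -0.31 ± 0.11, and Trib3 at 0.66 ± 0.30 on a level of under 1 CPM. Synaptic lists had medians a little above 0, and 0 of their genes passed. Glutamate receptor and scaffold genes had a median of 0.011 (24 of 44 above) and presynaptic release genes 0.029 (21 of 36; Sv2b at 0.14 ± 0.043). For GABA genes it was 0.036 (14 of 20) and for potassium channels 0.036 (26 of 39). At an unadjusted p under 0.05, in that order, 5, 4, 2 and 2 genes were higher (4.94% of all genes). Lower at that level were 2, 1, 1 and 0 (5.97% of all genes).

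Choroid plexus markers summed to a median of 7.73 CPM in wild type and 9.61 CPM in double het, striatal markers to between 248 and 288 CPM and between 242 and 272 CPM, and red blood cell genes to between 83.8 and 156 CPM and between 78.4 and 178 CPM. Clic6 of the choroid plexus (1.21 ± 0.38) and Drd2 of the striatum (0.82 ± 0.29) had large differences at levels under 2 CPM and did not pass. Fibroblast and meningeal markers lay above in 11 of 13 (median 0.15) and summed to 48.2 to 136 CPM in wild type and 55.6 to 133 CPM in double het. The part of these markers in the calls was not tested.

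Set beside the single heterozygotes, the called genes followed different orders. Medians are given in the order wild type, Slc25a1 het, Mrpl40 het, double het. Those of Slc38a3 were 69.1, 69.6, 69.6 and 58.4 CPM. Its difference from double het had an adjusted p of 0.0931 against Slc25a1 het (-0.20 ± 0.047) and 0.200 against Mrpl40 het (-0.20 ± 0.047) by edgeR. Reps2 had medians of 174, 178, 185 and 197 CPM in that order, and it passed against Slc25a1 het (0.17 ± 0.035, adjusted p 0.0377) but not against Mrpl40 het (0.099 ± 0.035, adjusted p 0.549). For Mt3 (146, 136, 134 and 129 CPM), Rps15 (202, 189, 187 and 179 CPM) and Gm7331 (46.4, 41.8, 42.0 and 40.3 CPM) the single heterozygotes stood between wild type and double het, and 0 of these differences from double het passed.

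The mitochondrial copies and C1qa showed another order, with Mrpl40 het on the side of double het. Gm10925 had medians of 2272, 2300, 2914 and 2649 CPM, and double het stood below Mrpl40 het by -0.099 ± 0.044 (edgeR adjusted p 0.670). Gm10222 had medians of 194, 197, 250 and 236 CPM and passed against Slc25a1 het (0.25 ± 0.049, adjusted p 0.0375). C1qa had medians of 29.7, 28.1, 24.5 and 24.3 CPM. All these comparisons share the double het libraries, and those with wild type share the wild-type libraries.

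**Figure D3:**
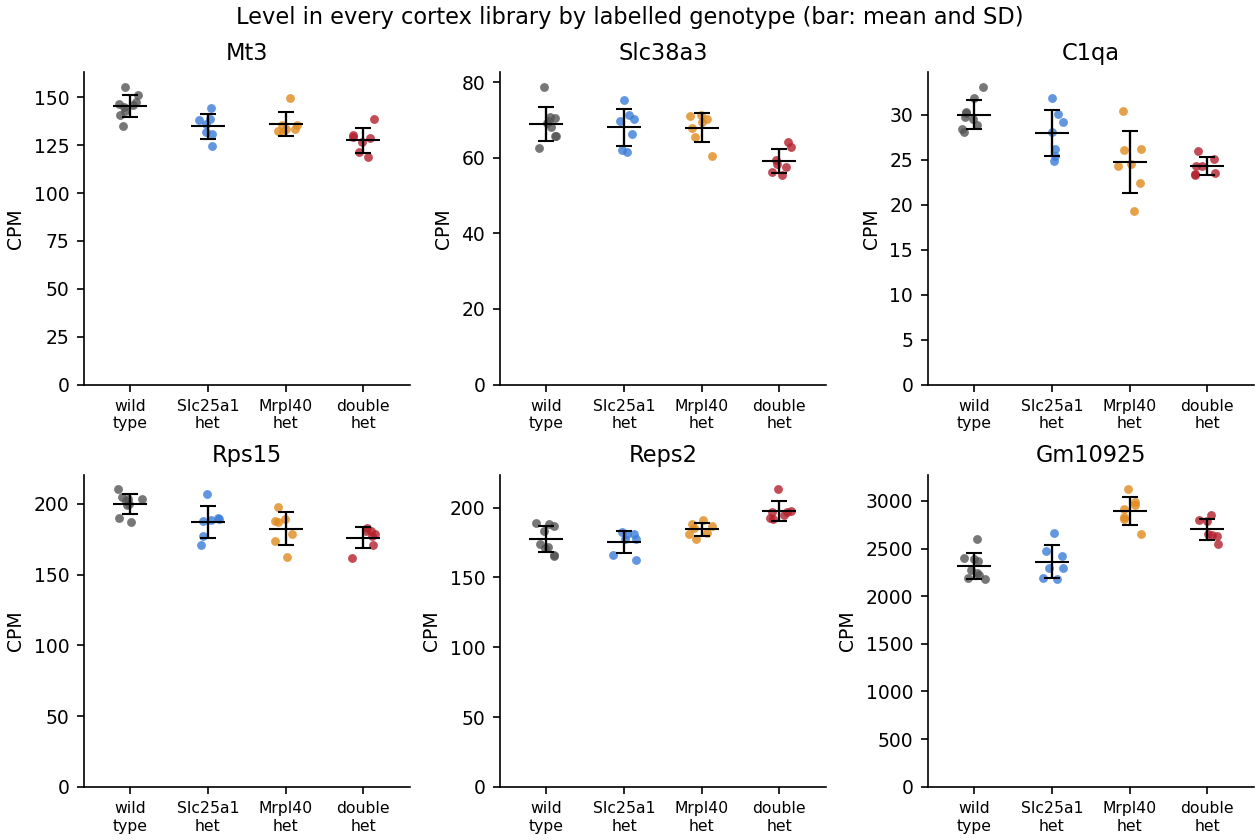
CPM of 6 called genes in every cortex library by labelled genotype (points: libraries; bars: mean and SD; n = 9 for wild type and 7 for each other group), with axes from 0. The medians of Slc38a3 are 69.1, 69.6, 69.6 and 58.4 CPM in the order wild type, Slc25a1 het, Mrpl40 het, double het, and those of Gm10925 are 2272, 2300, 2914 and 2649 CPM.

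Against Slc25a1 het 12 genes passed (0.0588%), 5 higher (0.0245%) and 7 lower (0.0343%) in double het, and against Mrpl40 het 1 gene passed (0.00490%). Without the 6 libraries, 2 of which are Slc25a1 het libraries, 0 genes passed against Slc25a1 het by edgeR (1309 at an unadjusted p under 0.05) and 3 against Mrpl40 het. Those libraries were chosen by their Slc25a1 level, so a call of Slc25a1 itself against Mrpl40 het is set by that choice. The gene that passed against Mrpl40 het in all libraries was Malat1, an abundant nuclear noncoding RNA. It ranged from 1734 to 2040 CPM (median 1869) in double het, from 2218 to 2308 CPM (median 2250) in Mrpl40 het, from 1955 to 2580 CPM (median 2209) in Slc25a1 het and from 1939 to 2352 CPM (median 2092) in wild type. It fell against Mrpl40 het by 0.28 (SE 0.046, edgeR adjusted p 0.0105) and against Slc25a1 het by 0.25 (SE 0.046, 0.0333), and against wild type it stood at -0.18 ± 0.043 (0.0785). Lower against Slc25a1 het were also the predicted genes Gm43318, Gm43341, B830012L14Rik, Gm38384, Gm44229 and Gm44677, and higher were Ppm1e, a protein phosphatase (0.21 ± 0.042, adjusted p 0.0375), Rprd1a, Cpeb2, Reps2 and Gm10222. None of these except Reps2 and Gm10222 passed against wild type.

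In hippocampus of the same animals (1 wild-type animal has no hippocampus library here), 7 libraries against 8, the mitochondrial copies were higher in double het as well, and 0 of the 10 genes lower in cortex passed. The Slc25a1 level of the same 4 animals went against the label in hippocampus too. It was 27.7 and 21.4 CPM in double het replicates 5 and 6 and 11.3 and 12.3 CPM in wild-type replicates 6 and 7. By edgeR 2 of 20162 genes passed there (0.00992%), both copies: Gm10222 rose by 0.38 ± 0.064 (adjusted p 0.0256), from a median of 215 to 278 CPM, and Gm13340 by 0.40 ± 0.072 (adjusted p 0.0412). Gm28439 stood at 0.33 ± 0.064 (0.0795) and Gm10925 at 0.28 ± 0.072 (0.627). All 4 genes higher in cortex lay above wild type in hippocampus (48.6% of all genes did), and 7 of the 10 lower genes lay below (51.4%). The largest of those 7 in size was Zfp467 at -0.13 ± 0.078.

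The difference between the tissues was tested with the animal as a block. It passed for 5 of 21354 genes (0.0234%), Pcsk1n, Zfp771, Gm14681, Scand1 and a row with no symbol, and for 0 of the 14 genes called in cortex. Gm7331 came nearest, lower in cortex and at 0.047 ± 0.044 in hippocampus, a tissue difference of 0.27 ± 0.058 (edgeR adjusted p 0.105). The difference for Dapk3 was 0.26 ± 0.063 (0.245) and for Slc38a3 0.20 ± 0.10 (0.987). At an unadjusted p under 0.05 by edgeR, the tissues differed for 7 of the 10 lower genes and 0 of the 4 higher. Among all genes, 1074 of 21354 did. The 14 genes were called on cortex values that enter this difference, so these counts are not a separate test. Of the gene lists, 10 of 17 microglia genes lay below in hippocampus (median -0.015), 12 of 28 immediate early genes (median 0.025) and 67 of 80 cytosolic ribosomal genes (median -0.073). Whether a list differed between the tissues was not tested.

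**Figure D4:**
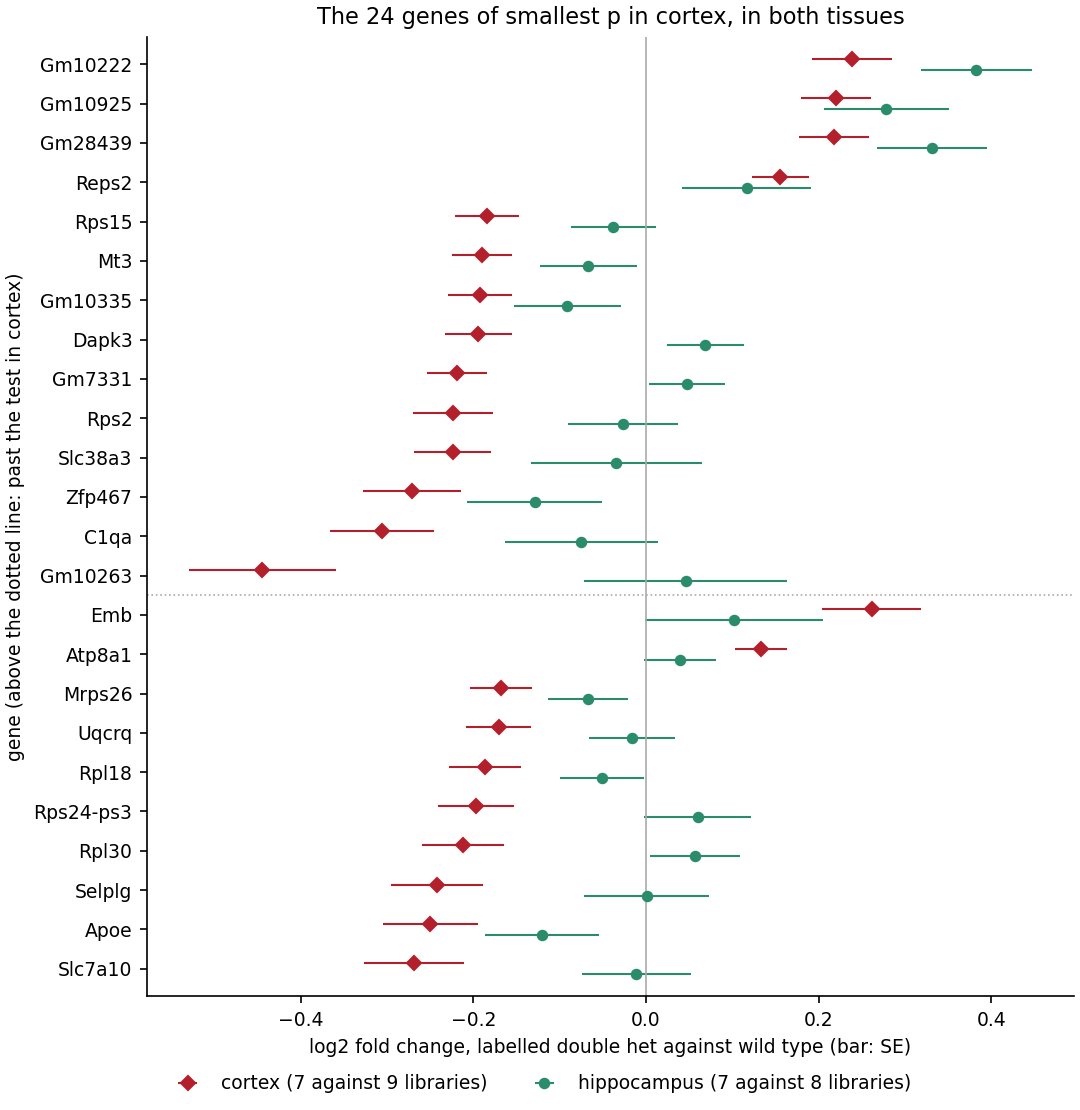
Log2 fold change of labelled double het against wild type in cortex (diamonds) and hippocampus (circles) with its SE, for the 14 genes past the test in cortex (above the dotted line) and the next 10 by p. The hippocampus values of the 10 lower genes lie between -0.13 and 0.069, and those of the mitochondrial copies between 0.28 and 0.38.

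Fold changes in cortex followed transcript length and GC content over all genes. The median log2 fold change went from -0.043 in the 20% of genes with the shortest transcripts to 0.024 in the 20% with the longest, and from 0.024 at the lowest GC content to -0.035 at the highest. For each library the median deviation of the shortest 20% less that of the longest 20% ranged from -0.0100 to 0.104 (median 0.035) in wild type and from -0.128 to 0.0533 (median -0.020) in double het, with double het replicate 5 the lowest. Short transcripts with high GC content include Mt3 (536 bases, 62.3% GC) and Rps15 (572 bases, 62.4%), Gm10263 and Gm10335 are short at 300 and 468 bases with 52.0% and 51.3% GC, and Reps2 has 7675 bases at 42.0%. With the trends removed as offsets, 20 genes passed and 7 of the 14 were among them: Gm7331, Gm10263, Slc38a3, Zfp467 and the 3 mitochondrial copies. The 13 others included 4 more mitochondrial copies (Gm13340, Gm28438, Gm28661 and Gm29216), Mrps26, Rpl30, Malat1 and B830012L14Rik. Of the 14, the other 7 did not pass: C1qa stood at -0.24 (edgeR adjusted p 0.0723), Gm10335 at -0.15 (0.0723), Rps2 at -0.18 (0.115), Dapk3 at -0.12 (0.165), Reps2 at 0.11 (0.197), Mt3 at -0.10 (0.270) and Rps15 at -0.098 (0.358).

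**Figure D5:**
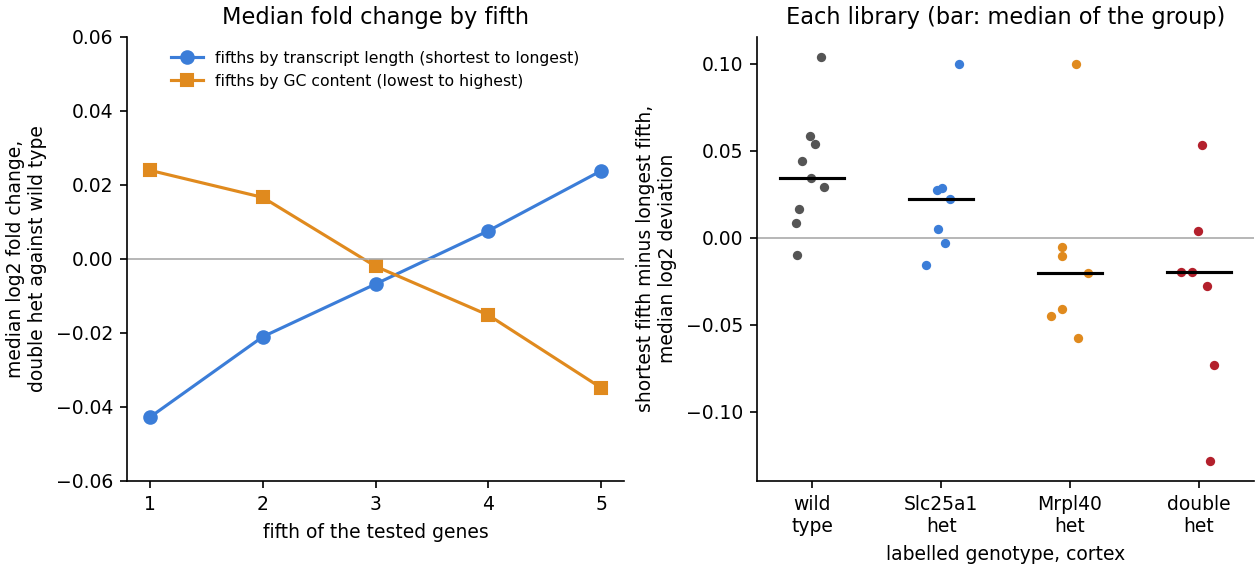
Left: median log2 fold change of labelled double het against wild type in 5 equal parts of the tested genes by transcript length and by GC content. Right: for each cortex library the median log2 deviation of the shortest part less that of the longest (points: libraries; bars: group medians), with medians of 0.035 in wild type and -0.020 in double het.

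The number of calls rested on few libraries. The 6 libraries were chosen by their Slc25a1 level, so a call of Slc25a1 itself without them is set by that choice. Without the 6 libraries (7 wild-type and 5 double het libraries left) 2 genes passed, and 0 of the 14 were among them. Their fold changes moved little: C1qa stood at -0.31 ± 0.072 (edgeR adjusted p 0.239), Mt3 at -0.18 ± 0.041 (0.171), Slc38a3 at -0.18 ± 0.048 (0.370), Gm7331 at -0.21 ± 0.043 (0.107) and Gm10925 at 0.23 ± 0.049 (0.107). In double het replicates 5 and 6, of 28 values of the 14 genes, 18 lay inside the range of the other 5 double het libraries, 9 lay beyond it on the side away from wild type, and 1, C1qa in replicate 6 at 26.0 CPM, lay beyond it towards wild type. Since the 14 genes were called with both libraries included, these counts cannot show how alike the double het libraries are. Leaving out double het replicate 5 alone left 1 call, and leaving out replicate 6 alone left 2. By DESeq2 111 genes passed, 36 higher and 75 lower, among them all 14.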

How the data were processed

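RNA of 59 libraries (poly(A) selected, strand-marking kit, paired reads of 150 bases, per the labels' protocols) was deposited by the authors as a table of raw read counts per gene, together with the authors' normalized counts, a signal scaled by size factors. FastQC, HISAT2, featureCounts and DESeq2, and the mouse builds mm39 and GRCm39, are named in the submitters' processing notes; the sources used here give neither their versions nor the strand setting. The table holds 57180 genes, 44147 above 0 in some library. Total counts ranged from 22100013 to 31854093 in the 16 libraries compared.

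Counts of the 4 cortex genotypes were fitted together with edgeR 4.0.16 in R 4.3.3 (TMM scaling, low counts removed by filterByExpr, robust quasi-likelihood test), and the contrast was taken between the labelled groups. Calls have a Benjamini-Hochberg adjusted p under 0.05 over all tested genes. The SE is the log2 fold change over the root of the F statistic. The p-values set the difference between 2 group means against the spread between these animals, which was estimated over the 4 genotypes together. The tissue difference was fitted with the same edgeR test on the 58 libraries of the 29 animals with both tissues, with the animal as a block. Alternatives used DESeq2 1.42.0, limma 3.58.1 on the deposited normalized counts, sva 3.50.0, other filters and scalings, offsets for length and GC content, and left-out libraries. Transcripts were compared with blastn 2.17.0 (at least 90% identity over 50% of the length) on GENCODE vM21. Its build differs from that of the counts, so no gene coordinates are given. The procedure was tested on simulated counts.

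Named genes are the 2 targeted genes, all calls, the next 10 by p, and in each gene list the member with the smallest p in each direction. Genes called in the other comparisons and further list members were named for their role after their values were seen. The genes and lists were chosen with earlier results of these data known. A few items are not reported here.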

Additional observations from a re-analysis of the deposited data

Results flagged for a closer look

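In 5 of 130 groups of libraries the lowest or the highest library stood apart from the others by its gap relative to the range of its group, where chance gives about 5% (Dixon's test). For single genes these were Gm10335 in double het replicate 5, at 32.1 CPM with the nearest library at 34.2 CPM, Rps2 in wild-type replicate 2, at 175 CPM with the nearest at 155 CPM, and Reps2 in double het replicate 4, at 213 CPM with the nearest at 197 CPM. For lists they were the mean log2 CPM of immediate early genes in wild-type replicate 3, at 4.92 with the nearest at 5.88, and that of striatal markers in wild-type replicate 8, at 3.28 with the nearest at 3.51.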

How the results depend on the processing

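The 14 called genes in every alternative setting gave 364 fold changes. All kept their direction, while 136 of them no longer passed. The setting for a fold of at least 1.2 reused the main fit, so no direction could change there. The refits reuse libraries on which the genes were called, so a kept direction is not a separate test. The number of genes called against wild type in cortex, 14, became 22 without the filter on low counts, 111 by DESeq2's Wald test, 35 with 2 surrogate variables, 2 without the 6 animals of Slc25a1 level against label (2 wild type, 2 double het and 2 Slc25a1 het), and 0 for a fold of at least 1.2 (222 at an unadjusted p under 0.05). Leaving out 1 library gave 1 to 32 calls. The count moved by over 1.5 times without wild-type replicates 2 (6), 5 (7), 6 (8) or 9 (8) and without double het replicates 2 (5), 3 (32), 5 (1), 6 (2) or 7 (6). The 12 calls against Slc25a1 het became 20 without the filter, 73 by DESeq2 and 0 without those animals (1309 at an unadjusted p under 0.05), and the 1 call against Mrpl40 het became 13 by DESeq2 and 3 without those animals. In hippocampus the 2 calls became 1 without the filter, 6 by DESeq2 and 1 without those animals. That last gene was lower in double het, and 0 of the 2 mitochondrial copies passed without those animals. The animals were left out by their Slc25a1 level. A call of Slc25a1 itself against wild type or Mrpl40 het without them is therefore set by that rule and is no finding. The 5 calls for the tissue difference became 1 with no animal block and 0 without those animals (903 at an unadjusted p under 0.05). The difference of Mrpl40 turned to 0.0017 without those animals. The cause of these changes was not tested.

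With the replicate block 8 genes passed against wild type in cortex, 5 of the 14 among them (Gm7331, Zfp467, Gm10222, Gm10925 and Gm28439), while the other 9 had edgeR adjusted p-values from 0.0567 to 0.127. Under the block 11 passed against Slc25a1 het, 4 against Mrpl40 het and 0 in hippocampus (1210 at an unadjusted p under 0.05). Same-numbered deviations over 5000 genes correlated between -0.11 and 0.38, above 0.1 in 4 of 7 pairs, and 2 of 7 double het libraries correlated best with their own number. These values do not settle whether the numbers pair the libraries.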

Other observations

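The 5 genes whose difference between double het and wild type differed between the tissues did not pass in cortex. The neuropeptide-processing protein Pcsk1n stood at -0.49 ± 0.13 (SE) in cortex, and its hippocampus difference was 0.67 ± 0.11 larger (edgeR adjusted p 0.0171). The zinc finger gene Zfp771 stood at -0.55 ± 0.14 in cortex, with a tissue difference of 0.76 ± 0.13 (adjusted p 0.0313). Scand1 stood at -1.09 ± 0.36, with a tissue difference of 1.75 ± 0.32 (adjusted p 0.0379), and Gm14681 at 0.18 ± 0.050, with a tissue difference of -0.42 ± 0.078 (adjusted p 0.0379).

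Of the lists not described above, 10 of 18 glycolysis genes lay above wild type in cortex (median 0.0076), 9 of 15 complex V genes below (median -0.012), 7 of 13 excitatory neuron markers below (median -0.028) and 9 of 16 interneuron markers below (median -0.033). Interferon response and antigen presentation genes lay above in 12 of 23 (median 0.0055). None of these lists held a gene that passed the test.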
